A study of Homo sapiens with 6 samples.

Results

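The regions described here are m6A peaks of control U-251 MG cells that had no counterpart after knockdown of TRA2A but did have one after knockdown of METTL3. A control peak was taken as a member of this set if it shared at least 1 base on its strand with a peak of the shMETTL3 list and no base with any peak of the shTRA2A list. Of the 9206 control peaks, 1189 met the rule, which is 12.9% (exact 95% interval 12.2 to 13.6). Members were thus selected on measured values, the overlaps among the 3 peak lists, so presence in shMETTL3 and absence from shTRA2A define them and are no result.

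U-251 MG is an established human glioblastoma cell line. The groups were cells with a hairpin RNA against TRA2A (shTRA2A), cells with a hairpin against METTL3 (shMETTL3) and cells with a control hairpin (shNC), all grown in the same medium without further treatment in the labels. Each group had 1 immunoprecipitated and 1 input library, 6 libraries in all, so no difference between groups has a replicate check and none was tested. The labels state neither hairpin sequences nor whether a line came from 1 clone.

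N6-methyladenosine (m6A) is the most common internal modification of messenger RNA. It is written by a complex around the catalytic subunit METTL3, erased by FTO and ALKBH5, and read by proteins such as those of the YTH family, which act on splicing, translation and decay. TRA2A is an SR-like RNA-binding protein known for binding purine-rich GAA repeats and for regulating exon choice. In methylated RNA immunoprecipitation sequencing, an m6A antibody enriches RNA fragments, and stretches with more reads than the input are called as peaks. A peak list holds no transcript level, so a lost mark, less RNA and lower read depth cannot be told apart. Neither TRA2A nor METTL3 carried a control peak, and the only peak in either gene was 1 in TRA2A in the shTRA2A list. The knockdowns could not be checked in these lists.

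The 3 lists differ in length, which sets how easily a control peak finds a counterpart. The shTRA2A list held 2736 peaks, the shMETTL3 list 5433 and the shNC list 9206. Of the shNC peaks, 9.58% shared a base with an shTRA2A peak and 17.9% with an shMETTL3 peak. Each peak carries a score from the authors' peak caller, whose scale is not stated, and scores are used here to rank peaks within a list. The sources used here give no read depth.

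For the following member peaks the sequence under the peak could be printed, because they touch an annotated microRNA hairpin or a gene's start. The member peak with the most defined RNA lay in MIR9-2HG, the host transcript of a miR-9 hairpin, at chr5:88666713-88666912 (GRCh38, minus strand). It covered 60 of the 87 bases of the MIR9-2 hairpin, which lies at chr5:88666853-88666939, including all 22 bases of miR-9-3p and 11 of the 23 bases of miR-9-5p. miR-9 is a microRNA abundant in brain and known for its part in neural differentiation. In the hairpin the capitals mark the mature arms, and in each mature sequence they mark the seed, bases 2 to 8 (RefSeq sequences, GRCh38.p14).
MIR9-2: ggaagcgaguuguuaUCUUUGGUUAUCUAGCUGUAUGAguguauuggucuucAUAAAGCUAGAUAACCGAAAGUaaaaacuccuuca
hsa-miR-9-3p: aUAAAGCUagauaaccgaaagu
hsa-miR-9-5p: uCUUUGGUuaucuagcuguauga

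The shTRA2A list held 1 peak in MIR9-2HG with a score of 17.7, and it lay 100 bases away from the member peak on the side of the hairpin's 5′ end. The shMETTL3 list held 1 peak of 50 bases there with a score of 22.4, which lay inside the member peak and shared no base with the hairpin. The member peak itself had a score of 23.5 in shNC, where MIR9-2HG had 3 peaks. No shTRA2A or shMETTL3 peak covered any base of the hairpin.

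In all, 22 member peaks touched a RefSeq start window, which runs from 250 bases before to 50 after a gene's start, and 4 of these are shown because the peak is narrow or the window ends well inside it. Capitals mark GGAC, a core of the usual m6A sequence context, and GAAGAA, a purine-rich word of the kind TRA2A is known to bind. Each word was searched as these letters on both strands, and the 2 words cannot share bases.
MEF2C: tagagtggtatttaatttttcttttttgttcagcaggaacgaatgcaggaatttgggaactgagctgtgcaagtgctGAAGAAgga
DNHD1: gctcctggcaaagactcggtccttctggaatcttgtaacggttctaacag
ATOSA: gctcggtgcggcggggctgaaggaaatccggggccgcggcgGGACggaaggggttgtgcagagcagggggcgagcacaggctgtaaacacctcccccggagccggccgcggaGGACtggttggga
PGBD3: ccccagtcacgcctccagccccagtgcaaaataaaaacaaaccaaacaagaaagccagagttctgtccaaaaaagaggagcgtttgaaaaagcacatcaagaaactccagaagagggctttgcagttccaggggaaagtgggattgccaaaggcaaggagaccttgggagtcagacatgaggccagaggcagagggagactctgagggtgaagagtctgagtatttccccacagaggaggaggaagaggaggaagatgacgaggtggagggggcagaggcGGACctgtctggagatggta

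The MEF2C stretch, chr5:88823878-88823963 on the minus strand, is the 86 bases of a 200-base member peak that fall in the window (GRCh38.p14). MEF2C is a transcription factor of muscle and neurons. The stretch held 1 GAAGAA and no GGAC on the peak's strand, and the share of all start windows with GAAGAA at the same positions was 3.37%. The DNHD1 stretch, chr11:6497260-6497309 on the plus strand, is a whole member peak of 50 bases whose ends were the same in shMETTL3, and held neither word on its strand and 1 GGAC on the other. The ATOSA stretch, chr15:52678708-52678832 on the minus strand, held GGAC at 2 places, and 38.4% of all windows had at least 1 at those positions. The PGBD3 stretch, chr10:49524232-49524531 on the minus strand, fills the 300-base window, lies inside a 425-base member peak with a score of 25.3, and held 1 GGAC on each strand. GGAC occurred on the gene's strand in 66.3% of all windows of that length. A match describes these letters only. Of the 22 peaks, 14 had 50 or more bases inside a window, with chromosome 8 left out. Among these 14, the MEF2C stretch was the only one that held GAAGAA on either strand. No sequence was available for member peaks that touch neither a start window nor a microRNA hairpin.

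Member peaks scored higher in the control list than peaks missing from both knockdown lists, and lower than peaks found in both. Their median control score was 17.8 (quartiles 12.8 and 27.6, range 6.58 to 179). The 461 control peaks found in both knockdown lists had a median of 33.3, the 421 found in shTRA2A and missing from shMETTL3 had 17.9, and the 7135 found in neither had 11.4. The members and their mirror image, the peaks missing only after METTL3 knockdown, thus had nearly the same median. Widths followed the same order, with a median of 225 nt for members, 325 nt for peaks found in both, 225 nt for those found in shTRA2A alone and 100 nt for those found in neither. The part of score and width in membership was not tested.

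**Figure D1:**
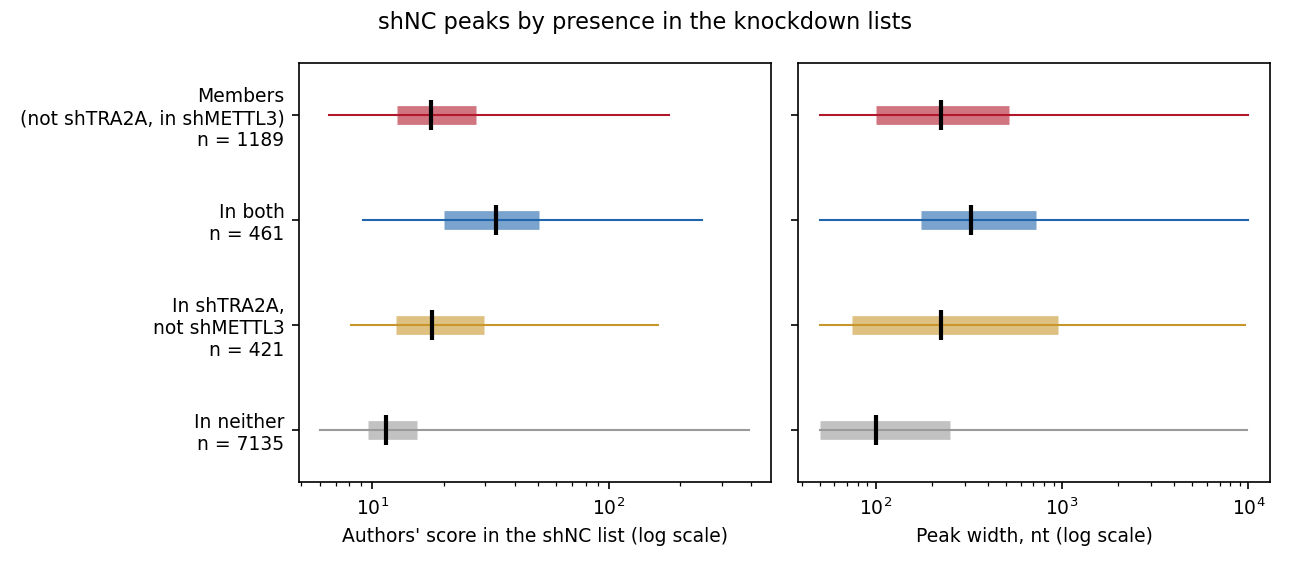
Authors' control score (left) and peak width in nt (right), both on log axes, for the 4 classes of shNC peaks. Black ticks are medians, thick bars quartiles and thin lines the full range. The members' median score of 17.8 lies between 33.3 for peaks found in both knockdowns and 11.4 for peaks found in neither.

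Among control peaks that had a counterpart in shMETTL3, 72.1% were missing from shTRA2A (exact 95% interval 69.8 to 74.2). The other 27.9% were found in shTRA2A, against 5.57% of control peaks without an shMETTL3 counterpart and 9.58% of all control peaks. Peaks with an shMETTL3 counterpart were thus missing from shTRA2A less often than control peaks in general. The share of 72.1% differed with strength. In the quintile of control peaks with the lowest scores, 47 of 50 peaks with an shMETTL3 counterpart were members, 94.0%. In the next quintiles the shares were 91.5%, 88.9% and 80.2%, and in the quintile with the highest scores 473 of 813 were, 58.2%. As a share of all control peaks of a quintile, members ran the other way, with 2.55% in the lowest quintile and 25.7% in the highest. Of the 500 best control peaks, 130 were members, 173 were found in both lists, 55 in shTRA2A alone and 142 in neither.

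**Figure D2:**
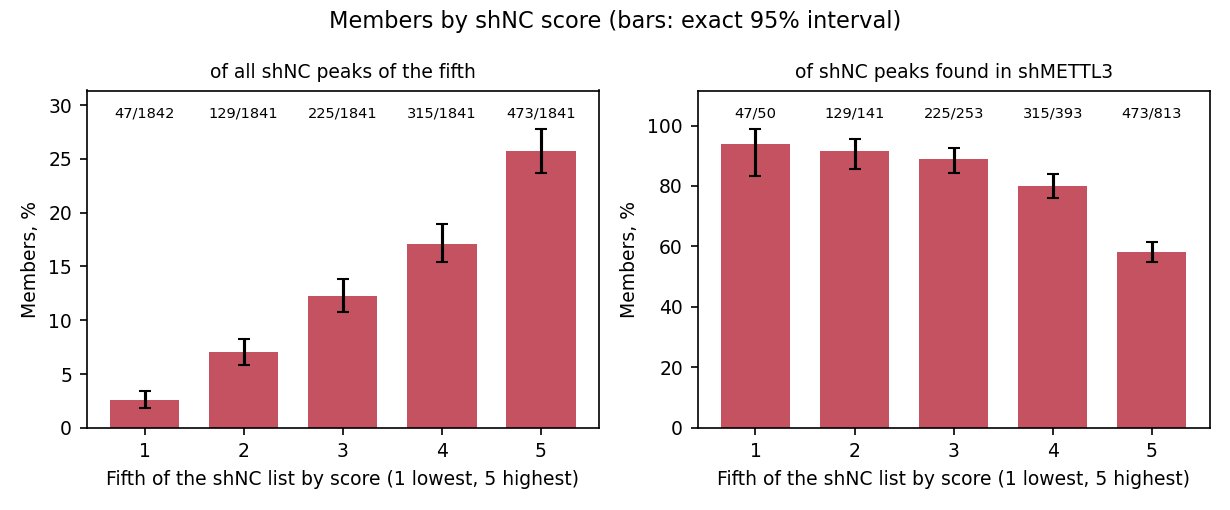
Members as a percentage of all shNC peaks (left) and of shNC peaks with an shMETTL3 counterpart (right) by quintile of control score, with exact 95% intervals and counts above the bars. The left share is highest in the top quintile, 25.7%, and the right share is lowest there, 58.2%.

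The shMETTL3 peaks lying on member peaks tended to rank above the middle of their list, whose median score was 8.40. Their best score per member had a median of 9.02 and a median rank of 2180 of 5433, against 9.59 and rank 1844 for the control peaks found in both knockdowns. The counterpart was among the best 10% of the shMETTL3 list for 161 members, 13.5%, and in its better 50% for 723, 60.8%. For control peaks found in both knockdowns these shares were 16.7% and 67.9%. It covered a median of 58.3% of the member peak, and the midpoints lay a median of 37.5 nt apart. In 718 members an shMETTL3 peak lay wholly inside, in 280 an shMETTL3 peak held the whole member, and in 95 the ends were identical. More than 1 shMETTL3 peak lay on 106 members.

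Most member peaks were far from any shTRA2A peak, though slightly less so than peaks found in neither list. An shTRA2A peak on the same strand lay closer than 100 nt to 51 members, 4.29%, against 2.30% of the control peaks found in neither list. Within 1000 nt the shares were 14.6% and 10.3%, and within 10000 nt 25.1% and 19.5%. At the edge of the rule, 10 members adjoined an shTRA2A peak with 0 bases between them. In SKIL, a repressor of TGF-beta signalling, the member peak chr3:170390310-170391255 ended 1 base before an shTRA2A peak began. The other adjoining members named by rule were in RBBP6, SMC6, MEPCE and TOR4A. Just outside the rule, 18 control peaks with an shMETTL3 counterpart shared 25 or fewer bases with an shTRA2A peak, among them peaks of CCPG1, ZBTB1, MACF1, RESF1 and UGGT1. On the opposite strand, 7 members overlapped an shTRA2A peak and 81 overlapped another shNC peak.

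**Figure D3:**
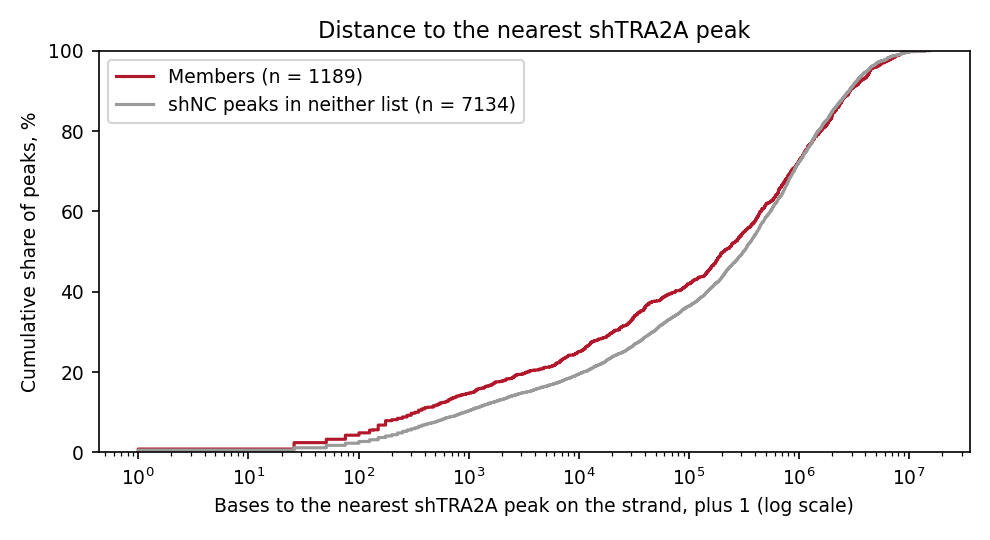
Cumulative share of peaks (%) by the number of bases to the nearest shTRA2A peak on the same strand, plus 1, on a log axis, for members (red) and for shNC peaks found in neither knockdown list (grey). The curve of the members lies above the other at short distances, with 25.1% against 19.5% within 10000 nt.

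Along genes, member peaks lay where control m6A peaks lie in general. Their midpoints had a median position of 78.0% of the gene body from the 5′ end, against 77.1% for peaks found in both, 71.2% for peaks found in shTRA2A alone and 78.2% for peaks found in neither. The last 10% of the gene body held 33.3% of the members. By chromosome, the share of control peaks that were members ran between 10.3% on chromosome 4 and 15.9% on chromosome 10, and the 1 mitochondrial peak was not a member.

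A gene could be given to 1124 members, in 901 of the 4148 genes with a control peak, 21.7%. Of these genes, 581 had no shTRA2A peak anywhere, 64.5%, and 320 had at least 1, 35.5%. The background for this was 28.6%, the share of all genes with shNC peaks in which the shTRA2A list held a peak. In 177 of the 320 genes an shTRA2A peak lay on another control peak, so that some control sites had a counterpart while the member did not. In the other 143 genes every shTRA2A peak lay off the control peaks. Most genes, 731, held 1 member, 170 held at least 2 and 39 at least 3. In 269 genes every control peak was a member, a count with no background value here. Of these genes 22 held at least 2 members, and each of the others had only 1 control peak. Another control peak found in neither list was present in 601 of the 901 genes.

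The 2 members with the best control scores lay in FAM111A and IFIT5. FAM111A, a serine protease known to restrict virus replication, had no shTRA2A peak. It had 4 shMETTL3 peaks on its member peak, with scores between 8.59 and 18.3. The member peak, chr11:59149149-59153068 on the plus strand, had a control score of 179, rank 6 of the list, and was 3920 nt wide. The 4 shMETTL3 peaks together covered 18.5% of it, and a rule on midpoints within 100 nt no longer counted it as a member.

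IFIT5, an interferon-induced protein that binds foreign RNA, also lacked any shTRA2A peak. The shMETTL3 list held 2 peaks of 75 and 125 nt there, with scores of 14.9 and 6.65. The member peak, chr10:89417294-89418468 on the plus strand, was the gene's 1 control peak, with a score of 162 and rank 9. The shMETTL3 peaks lay near its ends and covered 17.0% of it, and a rule on midpoints within 100 nt no longer counted it as a member.

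IFIT2, a relative that binds RNA and limits viral translation, had no shTRA2A peak, 2 shMETTL3 peaks and 5 shNC peaks. Its member peak, chr10:89307370-89307469, was 100 nt wide with a control score of 31.7, and the shMETTL3 peak on it had a score of 7.61. The other 4 control peaks of IFIT2 had scores of 25.9 to 39.9 and were found in neither knockdown. IFIT1 had 1 shTRA2A, 3 shMETTL3 and 2 shNC peaks, and none of the control peaks was found again. IFIT3 had 1 shMETTL3 peak and no shNC peak, so no member was possible. EGFR, the growth factor receptor named in the study's title, had 1 shTRA2A, 1 shMETTL3 and 6 shNC peaks and no member, because its 1 retained control peak was found in both lists.

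SAMD9 and SAMD9L, neighbouring interferon-induced genes with antiviral and antiproliferative roles, held 7 members between them. SAMD9 had 0 shTRA2A, 6 shMETTL3 and 12 shNC peaks. Its 4 members had control scores of 22.9, 75.7, 88.1 and 89.3, and the best of them lay at chr7:93103813-93104287 on the minus strand. The strongest shMETTL3 peak of SAMD9, with a score of 26.6, lay on no control peak. The other 8 control peaks, with scores of 15.8 to 79.7, were found in neither list, so strong control peaks of SAMD9 were also missing from both knockdown lists.

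SAMD9L had 1 shTRA2A, 6 shMETTL3 and 9 shNC peaks. Its 3 members had control scores of 38.1, 45.2 and 76.1. The best control peak of the gene, with a score of 112, overlapped the shTRA2A peak and was no member, and the shTRA2A peak had a score of 7.57.

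PARP14, an ADP-ribosyltransferase of the interferon response, showed members close to retained sites. It had 2 shTRA2A, 6 shMETTL3 and 4 shNC peaks. A member of 350 nt, chr3:122700414-122700763, had a control score of 91.1 and lay 775 nt from an shTRA2A peak. A second member with a score of 37.7 lay 75 nt from the other shTRA2A peak, which itself overlapped a control peak with a score of 36.9. SLFN12, a Schlafen family protein, had no shTRA2A peak, 2 shMETTL3 peaks and 1 shNC peak. That shNC peak was a member with a control score of 86.8, and one of the shMETTL3 peaks on it had a score of 23.3.

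Over the whole list of interferon-stimulated genes, 15 of 90 control peaks in 8 genes were members, 16.7% (exact 95% interval 9.64 to 26.0), against 12.9% of all control peaks with a gene. Without SAMD9, the gene of the list with most members, 11 of 78 remained, 14.1%. Of 18 control peaks of the list with an shMETTL3 counterpart, 15 were members, 83.3% (exact 95% interval 58.6 to 96.4), where the share over all genes was 71.8%. Both intervals for the whole list include the share over all genes.

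Other members with high control scores lay in signalling and cytoskeletal genes. MAP3K4, a kinase upstream of p38 and JNK, had an shTRA2A peak 63231 nt from the member and 1 shMETTL3 peak of 75 nt on it. Its member, chr6:161048688-161049512, had a control score of 135. N4BP2L2 had no shTRA2A peak and 2 shMETTL3 peaks, both on the member, which had a control score of 118. FILIP1L, named for its likeness to the filamin A-binding protein FILIP1, had no shTRA2A peak and 4 shMETTL3 peaks. These fell 2 each on its 2 members, which had control scores of 50.5 and 97.4.

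USP47, a deubiquitinase, had no shTRA2A peak and 1 shMETTL3 peak, on a member with a score of 77.8, beside 5 control peaks found in neither list. SECISBP2L had a member with a score of 86.4, ZNF131 one with 83.7 and CDV3 one with 80.2, and in each of these genes the shTRA2A list held 1 peak elsewhere. In ZNF131 that shTRA2A peak lay 150 nt from the member, and in CDV3 it lay 650 nt away.

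BCLAF1 and ZC3H13 each had a member beside control peaks that were found in both lists. BCLAF1, a factor of transcription and RNA processing, had 2 shTRA2A, 5 shMETTL3 and 5 shNC peaks. Its member, chr6:136276000-136277955, had a control score of 81.7, while a control peak with a score of 41.4 was found in both lists and 3 with scores of 13.6 to 23.0 in neither. ZC3H13 belongs to the m6A writer complex, where it helps to hold the complex in the nucleus. It had 8 shTRA2A and 13 shMETTL3 peaks, and 3 of its control peaks, with scores of 77.9, 101 and 118, were found in both lists. Its member, chr13:45975763-45979911, had a control score of 79.6 and lay 25 nt from an shTRA2A peak. An shMETTL3 peak with a score of 41.1 covered 99.4% of that member.

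The cell cycle list had the highest share of members among lists with at least 20 control peaks. Of 78 control peaks, 22 in 8 genes were members, 28.2% (exact 95% interval 18.6 to 39.5), against the background of 12.9%. Of its 23 control peaks with an shMETTL3 counterpart, 22 were members, 95.7% (exact 95% interval 78.1 to 99.9), against 71.8% over all genes. CENPF alone gave 9 of the 22, and without it 13 of 52 control peaks were members, 25% (exact 95% interval 14.0 to 38.9). Peaks of 1 gene share a transcript and are not independent, so these intervals are too narrow.

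CENPF encodes a large kinetochore protein of dividing cells and held more members than any other gene. It had 2 shTRA2A, 12 shMETTL3 and 26 shNC peaks. The 2 shTRA2A peaks were 50 nt wide, lay 50 nt apart and had scores of 7.54 and 7.91. The 9 members had control scores of 9.22 to 63.8 and widths of 50 to 1897 nt. One of them, with a score of 15.6, began 175 nt from an shTRA2A peak. A control peak with a score of 16.0 was found in shTRA2A alone, and 16 were found in neither list.

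MKI67, the gene of the proliferation marker Ki-67, had 5 shTRA2A, 6 shMETTL3 and 17 shNC peaks, and 11 of its control peaks were found in neither list. Its 4 members had control scores of 14.0, 16.7, 19.8 and 28.8. Its strongest control peaks were no members, since one with a score of 109 was found in both lists and one with 65.9 in shTRA2A alone. SMC3, a cohesin subunit, had no shTRA2A peak and 2 shMETTL3 peaks, and its members had control scores of 11.6 and 51.0. ASPM and KIF14, proteins of the spindle and of cytokinesis, had no shTRA2A peak either and 2 members each, with best control scores of 41.7 and 29.8.

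NIPBL, which loads cohesin onto chromatin, had 0 shTRA2A, 4 shMETTL3 and 4 shNC peaks. All 4 shMETTL3 peaks lay on its 3 members, which had control scores of 13.8, 34.6 and 74.9. WAPL, the cohesin release factor, had no shTRA2A peak and 2 adjacent members with control scores of 41.3 and 43.3.

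FEM1B, a substrate receptor of a cullin ubiquitin ligase, had 0 shTRA2A, 4 shMETTL3 and 4 shNC peaks. Its 3 members had control scores of 24.7, 28.3 and 48.0, and the other control peak, found in neither list, had a score of 11.2. Of the 1124 members with a gene, 253 were next to another member in the order of control peaks along their gene and strand, a count with no background value here.

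**Figure D4:**
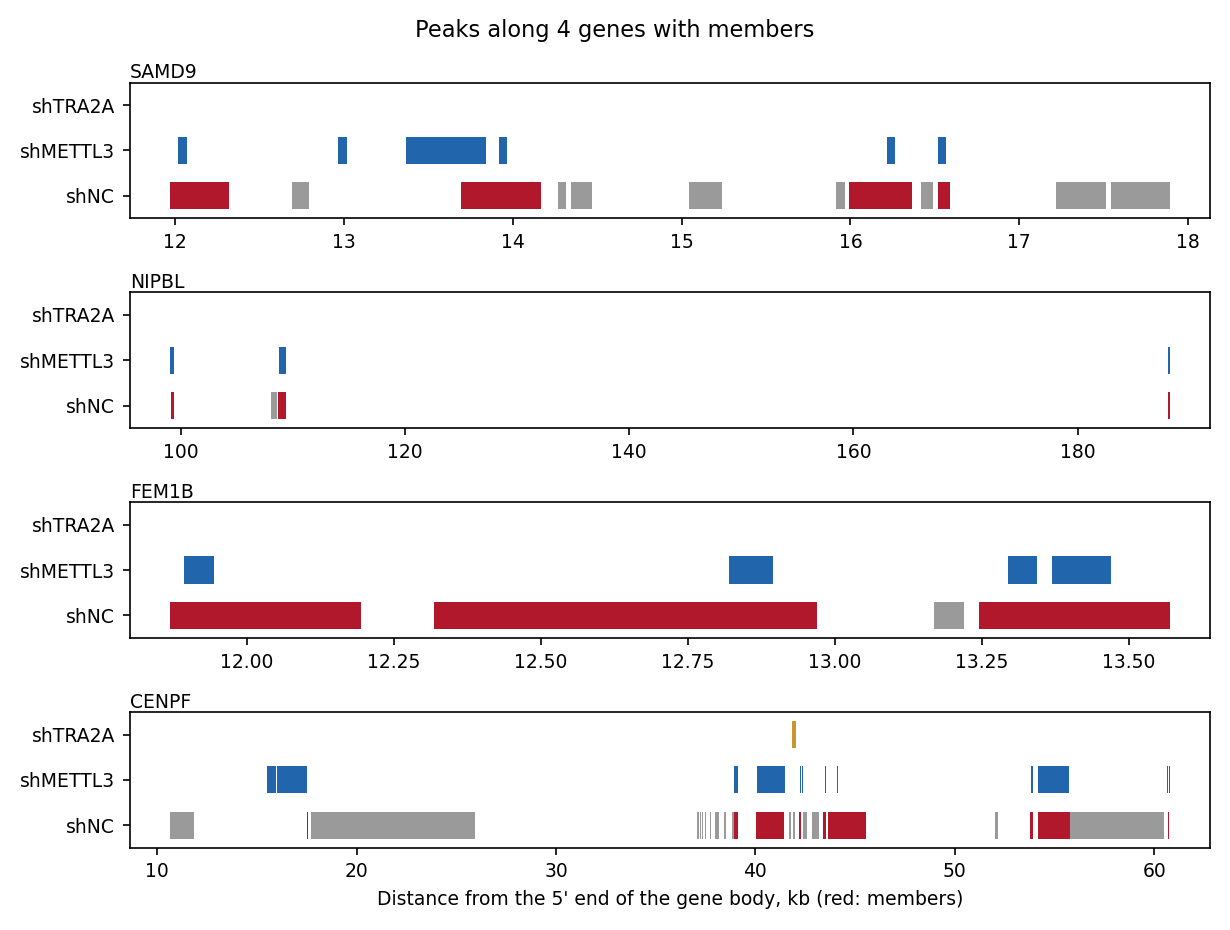
Peaks of the 3 lists along SAMD9, NIPBL, FEM1B and CENPF by distance in kb from the 5′ end of the gene body, with rows for shTRA2A, shMETTL3 and shNC; very narrow peaks are drawn slightly wider to stay visible. Members are red and other shNC peaks grey, and the shTRA2A row is empty in 3 of the 4 genes.

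Beyond NIPBL, WAPL and FEM1B, 90 genes in all held at least 2 members and no shTRA2A peak. CLINT1, a clathrin adaptor, had no shTRA2A peak, and both of its control peaks were members, with scores of 40.1 and 64.7. In MBD4, a DNA glycosylase, both control peaks were members as well, with scores of 16.5 and 69.3. ERBIN, a scaffold that binds the receptor ERBB2, had 2 members with control scores of 37.0 and 60.7, and VCPIP1, a deubiquitinase, had 2 with 43.6 and 59.4. PRICKLE1, a planar cell polarity protein, had 3 members with control scores of 26.9 to 34.8, 1 on the plus strand and 2 on the minus strand.

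PDE4DIP, a protein of the Golgi and centrosome, had 2 shTRA2A, 2 shMETTL3 and 8 shNC peaks. Its 4 members had control scores of 9.71 to 15.4, and the same shMETTL3 peak with a score of 9.07 lay on 3 of them. SETD5, a SET domain protein of chromatin, had 0 shTRA2A, 5 shMETTL3 and 9 shNC peaks, and its 4 members had modest control scores of 12 to 22.1. TUG1, a long RNA listed as a coding gene in the annotation used, had 5 shTRA2A, 6 shMETTL3 and 16 shNC peaks. Its 5 members had control scores of 14.0 to 24.9, 3 on the plus strand and 2 on the minus strand. Its strongest control peaks, with scores of 74.1 and 74.5, were found in shTRA2A and missing from shMETTL3. ZNF91, a zinc finger repressor of transposable elements, also had 5 members on both strands, with control scores of 12 to 26.2, and 1 of them adjoined an shTRA2A peak with 0 bases between. Overlapping peaks on opposite strands may come from the same RNA, which was not tested.

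Some members carried an shMETTL3 peak that ranked far higher in its list than the member did in the control list. In NSRP1, a splicing regulator, the shMETTL3 peak had a score of 65.1 and rank 7 of 5433, and the member had a control score of 20.2. That shMETTL3 peak was 1090 nt wide and lay mostly outside the member. The member, 75 nt wide, lay at its edge and was covered to 66.7%. In NCOA3, a nuclear receptor coactivator, the shMETTL3 score was 62.5 at rank 10 and the control score 15. In FUBP3, an RNA- and DNA-binding protein, the shMETTL3 score was 44.0 and the control score 12.9. In IRF2BP2, a transcriptional cofactor, a plus-strand shMETTL3 peak with a score of 46.5 had the same ends as a member of 75 nt. That member had a control score of 22.8. A minus-strand member at the same place had a control score of 20.8. The shMETTL3 peak on the minus-strand member had a score of 8.16 and rank 2981. In PPIG, a nuclear cyclophilin with an SR-like domain, an shMETTL3 peak with a score of 39.3 covered a member with a control score of 55.2, and shTRA2A peaks lay 150 and 175 nt from its 2 members. IRF2BP2, FUBP3 and NCOA3 had no shTRA2A peak.

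Translation factors had 21 members among 100 control peaks in 13 genes, 21.0% (exact 95% interval 13.5 to 30.3), against the background of 12.9%. Without EIF2S1, an initiation factor subunit named after its values were seen, which held 3 members, 18 of 96 remained, 18.8% (exact 95% interval 11.5 to 28.0), and that interval includes the background. Of the 26 control peaks of the whole list with an shMETTL3 counterpart, 21 were members, 80.8% (exact 95% interval 60.6 to 93.4). This interval includes the 71.8% over all genes. GIGYF2, a translational repressor of the 4EHP complex, had 4 shTRA2A, 6 shMETTL3 and 5 shNC peaks, and its 2 members had control scores of 21.0 and 58.6. The member with the higher score lay 25 nt from an shTRA2A peak. PRRC2C, a protein of stress granules and initiation, had 6 shTRA2A, 10 shMETTL3 and 16 shNC peaks, and its 3 members had control scores of 18.5, 22.4 and 57.8. EIF3A and EIF4B, initiation factors, had 1 member each, with control scores of 41.0 and 28.9. The count for translation factors was 12 with midpoints within 100 nt and 11 with regular peaks alone, against 21 by the rule used here.

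**Figure D5:**
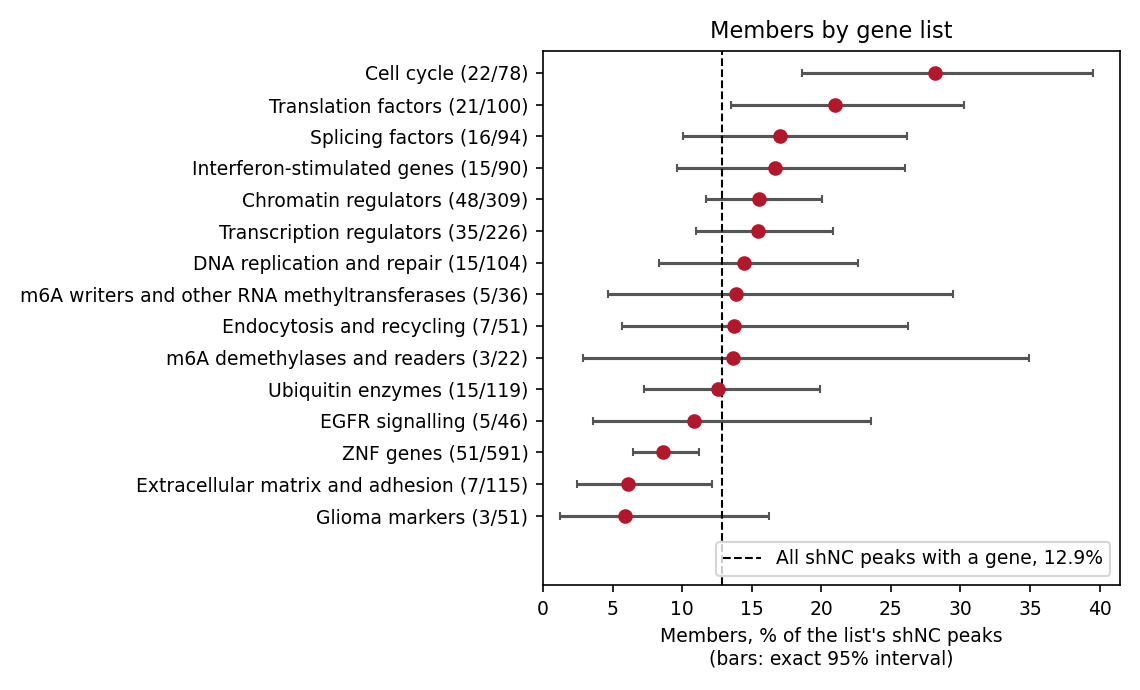
Members as a percentage of the shNC peaks of each gene list with at least 20 such peaks, with exact 95% intervals and counts in the labels. The dashed line is the share over all shNC peaks with a gene, 12.9%. Cell cycle genes, at 28.2%, and translation factors, at 21.0%, have intervals above the line, which for translation factors did not hold without EIF2S1, and ZNF genes, at 8.63%, and matrix genes, at 6.09%, have intervals below it.

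As a share of all their control peaks, members in splicing factors, to which TRA2A itself belongs, were near the background. There were 16 members among 94 control peaks in 12 genes, 17.0% (exact 95% interval 10.1 to 26.2). Of 30 control peaks of splicing factors with an shMETTL3 counterpart, 16 were members, 53.3% (exact 95% interval 34.3 to 71.7). That interval ends just below the 71.8% over all genes, and it is too narrow because peaks of 1 gene are not independent. In shTRA2A 23 of the 94 control peaks were found, against 882 of all 9206. MBNL2, a regulator of alternative splicing, had 1 control peak, a member with a score of 61.6. SCAF11, an SR-related factor, had 2 members with control scores of 18.3 and 50.7. The m6A writers and other RNA methyltransferases had 5 members among 36 control peaks, 13.9%. Besides ZC3H13, VIRMA, the scaffold of the writer complex, had 3 members with control scores of 9.70, 14.9 and 18.3. CBLL1, its ubiquitin ligase-like partner, had 1 with a control score of 13.2. The demethylases and readers had 3 members among 22 control peaks, 13.6%, in IGF2BP2, YTHDF3 and YTHDF1, with control scores of 17.9, 15.3 and 13.0.

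Chromatin regulators had 48 members among 309 control peaks in 30 genes, 15.5%, and transcription regulators had 35 among 226, also 15.5%. NSD1 and ASH1L, histone methyltransferases, had best members with control scores of 64.6 and 62.6. NR3C1, the glucocorticoid receptor, had no shTRA2A peak and a member with a control score of 54.1. DNA replication and repair genes had 15 members among 104 control peaks, 14.4%, of which 3 were in RIF1, and ubiquitin enzymes 15 among 119, 12.6%. All of these shares were close to the background of 12.9%.

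The lists nearest to the study's title were near the background. EGFR signalling genes had 5 members among 46 control peaks, 10.9%, of which 3 were in PIK3R1, the regulatory subunit of PI3-kinase, with control scores of 14.1, 14.6 and 27.6. RICTOR, a subunit of mTORC2, had 1 control peak, a member with a score of 39.5, and PIK3CA had 1, a member with a score of 23.7. None of these 3 genes had an shTRA2A peak. Endocytosis and recycling genes had 7 members among 51 control peaks, 13.7%. RAB11FIP2, which links RAB11 to recycling endosomes, had 2 members, with control scores of 17.9 and 30.4. CAV1, the coat protein of caveolae, had 1 with 25.2.

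ZNF genes and matrix genes had smaller shares of members than the background of 12.9%. ZNF genes had 51 members among 591 control peaks, 8.63% (exact 95% interval 6.49 to 11.2). Of their 64 control peaks with an shMETTL3 counterpart, 51 were members, 79.7% (exact 95% interval 67.8 to 88.7), and this interval includes the 71.8% over all genes. Extracellular matrix and adhesion genes had 7 members among 115, 6.09% (exact 95% interval 2.48 to 12.1), and 7 of 17 with an shMETTL3 counterpart, 41.2% (exact 95% interval 18.4 to 67.1). Examples were LAMC1, a laminin chain, with control scores of 20.9 and 34.0, and VCAN, the proteoglycan versican, with 1 member of score 32.9 beside 7 shTRA2A peaks. Glioma markers had 3 members among 51 control peaks, 5.88% (exact 95% interval 1.23 to 16.2), an interval that includes the background. These were 2 in CEBPB with control scores of 10.2 and 15.3 and 1 in SOX4 with 11.5. Ribosomal protein genes had 1 member among 6 control peaks, in RPL37, and neither histone genes nor markers of neurons, blood, endothelium and oligodendrocytes had any among 3 control peaks each.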

How the data were processed

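The deposited files are peak lists of methylated RNA immunoprecipitation sequencing. Column 5 is a score from the authors' peak caller, used only within a list, since its scale is not stated per the labels or the file headers. Reads were processed with HISAT2 2.2.1, featureCounts 2.0.1 and SAMtools on GRCh38, per the submitters' processing notes. For the peak caller and read depth, the sources used here say nothing. RNA was fragmented and made into stranded libraries, per the labels' protocols. A further deposited list equals the shTRA2A list byte for byte and was not used.

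Overlaps were computed with Python 3.11.15, numpy 2.4.6 and pandas 2.3.3, tested on simulated data and checked against bedtools 2.31.1. Shares carry exact Clopper-Pearson 95% intervals (scipy 1.17.1), which cover counting error only, since amplified reads do not count separate molecules. Quintiles follow the control score, and ranks follow the score of their own list. For quintiles, tied scores kept the order of the deposited list, and for ranks, tied peaks share the best rank. Regular peaks are those of 1 block with a width on the 25 nt grid and no more than 1000 nt. Of the 1189 members, 923 were regular. Overlaps, widths and covered shares used the outer start and end of each peak. For peaks of several blocks they thus include any gaps between the blocks.

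Genes came from a RefSeq table of gene bodies without exons or strand (GRCh38.p14). A peak was given the coding gene it touches, or with several the innermost one that holds it, or otherwise a long non-coding gene, whichever strand it lay on. Direction along a gene follows the strand of the peak, and in the peak maps that of most shNC peaks of the gene.

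The members and all 19 gene lists were chosen with earlier results of these data known. The text names IFIT1, IFIT2, IFIT3, IFIT5, EGFR, TRA2A and METTL3, the 15 genes with the best members, the 10 with most members, the 6 with the strongest shMETTL3 peak on a member, the 10 with the best summed score among genes with 2 or more members and no shTRA2A peak, up to 4 per list, and 5 peaks on each side of the overlap rule. Of these, some are given by counts alone, and 1 is not reported here. MIR9-2HG and the start-window genes were taken because RefSeq tables hold their sequence. Alternatives changed the overlap rule, score threshold, list length, width, merging, strand and gene assignment.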

Additional observations from a re-analysis of the deposited data

How the results depend on the processing

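Of 84 values of the main results under alternatives, 58 stayed within 1.5 times the count or inside the 95% interval and 26 moved. With midpoints within 100 nt the share of control peaks that were members was 11.4%, their share of those found in shMETTL3 78.4%, the median score 17.0, the median width 175 nt, the share in genes without an shTRA2A peak 57.5% and the share with an shTRA2A peak within 100 nt 9.36%. With no shTRA2A peak allowed within 100 nt the share of those found in shMETTL3 was 69.0% and the share within 100 nt 0 by construction. With the better-scoring 50% of each list 644 members (14.0%) remained in 521 genes, with a median score of 23.4, a median width of 275 nt, 72.4% in genes without an shTRA2A peak and 153 in listed genes. With the shMETTL3 list limited to the length of the shTRA2A list there were 730 members (7.93%) in 585 genes, a median score of 19.0 and 167 in listed genes. With regular peaks only the share was 12%, the median width 175 nt, the share in genes without an shTRA2A peak 67.1% and the median position 80.9%. With peaks within 100 nt merged the share was 13.8% and the median width 300 nt. All stricter rules together, chosen after seeing the data, left 537 members. Shortened lists hold fewer peaks and merging joins peaks into longer spans by construction. The cause of these moves was not tested. Of 171 counts for single lists, 30 moved by over 1.5 times, and the IFIT count was 1 under 5 of the alternatives. No paired analysis was possible because each condition has 1 peak list. Without replicates or read depth, a missing peak cannot be told apart from one below the calling threshold.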

Other observations

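Under the stricter rules together, which ask for close midpoints and a strong shMETTL3 counterpart and leave out members within 100 nt of an shTRA2A peak, 537 members remained, and 317 of them lay in 294 genes without any shTRA2A peak. Among those with the best control scores were peaks in FILIP1L, SAMD9, NIPBL and SHOC2. SHOC2, a scaffold of the RAS pathway, had a control score of 66.6 on 775 nt, and its shMETTL3 peak had a score of 35.3 and rank 47. Others were DNAJB4, a heat shock cochaperone, with a control score of 62.7, PLOD2, a collagen lysyl hydroxylase, with 62.3, TUBB6, a tubulin, with 58.0, and VEGFC, a growth factor of lymphatic vessels, with 53.3. These genes were named after their values were seen.

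Long non-coding genes held 19 members, 1.60% of all members, 1 in each of 19 genes. Such genes held 2.26% of the control peaks found in neither list. The shares were 1.52% for peaks found in both lists and 2.61% for peaks found in shTRA2A alone. The best were in OTUD6B-AS1 with a control score of 58.1, LINC03006 with 38.7 and NNT-AS1 with 30.6, none of which had an shTRA2A peak. In LINC03006 the member of 50 nt had the same ends in shMETTL3. SNHG16 had 2 shTRA2A peaks, and its member had a control score of 17.0 and lay 1250 nt from the nearest of them. No hypothesis was tested on these members.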
